A study of Mus musculus with 27 samples.

Results

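The 9 genes described here are ones that phagocytes use, or are known to be marked by, when they take up red blood cells and recycle their iron. They are Spic, Vcam1, Cd163, Hmox1, Blvra, Blvrb, Slc40a1, Slc11a1 and Nr1h3. They were taken as every probe whose gene symbol in the deposited intensity table equals one of these names, which gave 19 of the 45281 probes on the Illumina MouseWG-6 BeadChip and 9 of its 30869 gene symbols. The genes were chosen by their log2 differences between genotypes on these same arrays as well as by their known roles, so their differences between genotypes are given as a description and without a p-value. The cells came by flow sorting from the lamina propria of the colon in mice on a C57BL/6 background, as CD11b+ Ly6C+ monocytes, CD11b+ Ly6C- MHC-II+ F4/80+ macrophages and CD11b- CD11c+ CD103+ type 1 conventional dendritic cells (cDC1s). Those mice were either WT or lacked Mbd2 in every cell (Mbd2-/-), were littermates aged 8 to 22 weeks, and had all drunk 2% dextran sulfate sodium (DSS), which injures the colon epithelium, for 6 days. There were 5 arrays of each genotype for monocytes, 5 of each for macrophages, and 2 WT and 3 Mbd2-/- arrays for cDC1s. No colon array came from mice without DSS, and the splenic CD4 T cell arrays described at the end have no DSS percentage recorded.

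Red cells that leave the vessels or grow old are engulfed by macrophages, which break hemoglobin down to heme. Heme oxygenase 1 (Hmox1) opens the heme ring and frees iron and biliverdin, the biliverdin reductases (Blvra and Blvrb) turn biliverdin into bilirubin, and ferroportin (Slc40a1) exports the iron from the cell. Spi-C (Spic) is an Ets family transcription factor that heme induces and that red pulp macrophages of the spleen require, and VCAM-1 (Vcam1) is an adhesion molecule that such macrophages carry and that binds integrins on other leukocytes. CD163 (Cd163) takes up hemoglobin bound to haptoglobin, Nramp1 (Slc11a1) moves iron out of the phagosome, and the liver X receptor LXRα (Nr1h3) is a sterol sensing nuclear receptor that acts in iron recycling macrophages. Mbd2 binds methylated CpG dinucleotides and is known for linking DNA methylation to gene silencing. DNA methylation was not measured on these arrays.

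Because Mbd2 reads CpGs, the CpGs in front of 2 of the genes are shown. By the brightest probe of each gene, these are Spic, whose difference between genotypes was the largest of the 9 in macrophages, and Blvrb, whose difference was the largest in cDC1s. Each sequence is the 250 bases before a RefSeq start site (GRCm38.p6), written 5′ to 3′ on the strand of the gene, with every CpG in capitals. The Spic stretch lies at chr10:88683024-88683273 on the minus strand, and the Blvrb stretches, before 2 annotated starts, lie at chr7:27447728-27447977 and chr7:27452168-27452417 on the plus strand.
Spic: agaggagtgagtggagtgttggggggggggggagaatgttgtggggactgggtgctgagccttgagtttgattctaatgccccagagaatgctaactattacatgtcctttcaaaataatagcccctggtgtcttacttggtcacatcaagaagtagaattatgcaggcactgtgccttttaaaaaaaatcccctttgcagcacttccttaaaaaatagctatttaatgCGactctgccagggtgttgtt
Blvrb, first start: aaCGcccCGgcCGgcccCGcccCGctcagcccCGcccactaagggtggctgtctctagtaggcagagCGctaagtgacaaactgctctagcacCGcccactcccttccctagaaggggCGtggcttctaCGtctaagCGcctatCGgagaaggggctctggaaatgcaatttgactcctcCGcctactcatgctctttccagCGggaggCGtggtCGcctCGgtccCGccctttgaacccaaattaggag
Blvrb, second start: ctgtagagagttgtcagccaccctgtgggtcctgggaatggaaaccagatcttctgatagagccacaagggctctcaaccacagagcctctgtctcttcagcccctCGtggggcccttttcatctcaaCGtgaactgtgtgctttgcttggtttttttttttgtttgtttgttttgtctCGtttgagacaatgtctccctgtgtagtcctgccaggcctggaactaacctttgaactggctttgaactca

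The Spic stretch held 1 CpG, and 18.8% of the 32851 RefSeq windows of the same length held as few or fewer. The first Blvrb start had 18 CpGs and the second had 3, against a median of 6 over all windows. Among the other members with a window, Cd163 had none, Slc11a1 had 5, Blvra had 12, and the 2 starts of Nr1h3 had 7 and 8. Vcam1, Hmox1 and Slc40a1 had no entry. The letters GAGGAA, a core that Ets factors such as Spi-C bind, stood on either strand only in front of Slc11a1, once, while 23.3% of all windows held them. The letters TGACNNNGC, found in antioxidant response elements, stood only in front of Blvra, once, against 10.2% of all windows. These are matches of letters in a short window and no evidence of a binding site.

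The arrays differed in brightness. The mean raw intensity over all probes ranged from 172 to 353, and 16024 to 18608 probes were detected, meaning brighter than the negative control probes at a detection p-value under 0.05. The 3 Mbd2-/- cDC1 arrays were the dimmest of their cell type, with mean intensities of 172 to 228 against 265 and 292 in the 2 WT arrays. The single Mbd2 probe was not detected on any array (lowest detection p-value 0.0566), so the knockout could not be checked from the intensities. The sorts carried the markers of their labels: the summed level of 9 macrophage markers was 40960 to 47120 in macrophages, 17480 to 22000 in monocytes and 2596 to 5737 in cDC1s, and that of 8 cDC1 markers was 14400 to 16220 in cDC1s and at most 2889 elsewhere. The probe of Ccr2, a receptor that defines monocytes, was detected on 1 of the 10 monocyte arrays, whereas the other 5 monocyte markers on the array were detected on all of them. Levels below are log2 intensities after background correction and quantile normalization, on which a probe at background reads a little above 4, and a level is compared only within one probe.

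Spic was highest in macrophages that lacked Mbd2. The 5 Mbd2-/- macrophage arrays read 9.72, 10.05, 10.46, 10.51 and 10.57, and the 5 WT arrays 8.30, 8.53, 8.73, 8.90 and 9.02. The groups did not overlap, and the log2 difference was 1.56 ± 0.20 (standard error), a 2.95-fold higher level. The dimmer second Spic probe differed by 1.77 ± 0.29, again without overlap, although 1 Mbd2-/- array at 8.46 stood well above the other 4 (6.48 to 6.94). Because each array holds a pool of sorted cells, fewer cells of a type and less RNA per cell cannot be told apart. The separation was already present in the raw deposited intensities of the brighter probe, which ran from 345 to 685 in WT macrophages and from 926 to 1975 in Mbd2-/- macrophages.

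In monocytes, the cells that enter the inflamed colon and can become macrophages, Spic was less unequal. WT monocytes read 7.56, 7.62, 8.00, 8.09 and 8.15 and Mbd2-/- monocytes 8.15, 8.35, 8.35, 8.41 and 8.70, so that the highest WT and the lowest Mbd2-/- array stood at the same level. The log2 difference was 0.51 ± 0.20, and 0.66 ± 0.29 for the second probe. In cDC1s Spic was at the edge of detection. It was detected on 1 of 2 WT arrays (4.57 and 5.01) and 2 of 3 Mbd2-/- arrays (4.41, 4.73 and 5.53), the second probe was detected on none of them, and the groups overlapped with a log2 difference of 0.10 ± 0.29. Ordered by mean level, Spic fell from Mbd2-/- macrophages through WT macrophages, Mbd2-/- monocytes and WT monocytes to cDC1s. WT macrophages and Mbd2-/- monocytes overlapped in that order, as did the 2 groups of cDC1s.

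**Figure D1:**
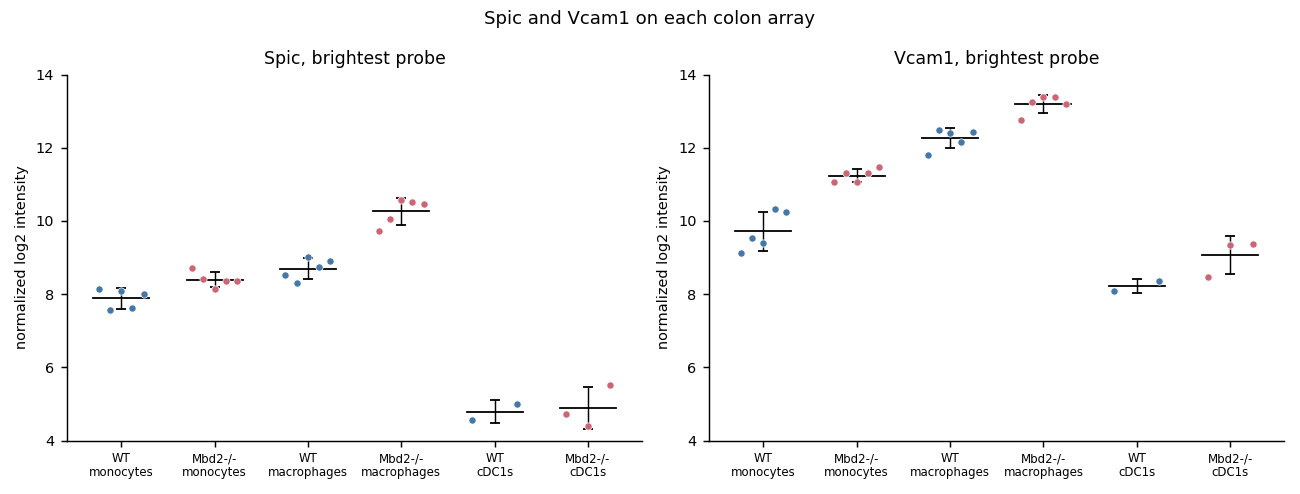
Normalized log2 intensity (vertical axis) of the brightest Spic probe and the brightest Vcam1 probe on each of the 25 colon arrays, by group (horizontal axis; blue WT, red Mbd2-/-), with the group mean and SD in black. Mbd2-/- macrophages lie above WT macrophages for both genes (Spic 9.72 to 10.57 against 8.30 to 9.02), and the group means of both genes are lowest in cDC1s.

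Vcam1 was higher in Mbd2-/- monocytes and macrophages on its brightest probe. WT monocytes read 9.11, 9.40, 9.53, 10.23 and 10.33 against 11.05, 11.07, 11.30, 11.31 and 11.48 in Mbd2-/- monocytes. In macrophages the WT arrays read 11.81, 12.17, 12.41, 12.42 and 12.47 and the Mbd2-/- arrays 12.76, 13.20, 13.26, 13.38 and 13.39. Neither pair of groups overlapped, and the log2 differences were 1.52 ± 0.22 in monocytes and 0.94 ± 0.22 in macrophages. Raw intensities were also apart, at 929 to 1466 against 1949 to 3749 in monocytes and 2721 to 6428 against 6674 to 11912 in macrophages.

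The 3 dimmer Vcam1 probes did not all behave like the brightest. The second and the third probes showed larger differences in macrophages (2.12 ± 0.21 and 1.38 ± 0.20) than the brightest probe did, and in monocytes they differed by 1.82 ± 0.21 and 0.95 ± 0.20. They were detected on only 2 and 3 of the 5 WT monocyte arrays and on no cDC1 array, so their differences in monocytes are lower bounds. The fourth probe was above background on 1 of the 25 arrays and carried no information. On the brightest probe the difference in macrophages minus that in monocytes was -0.58 ± 0.30.

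In cDC1s the normalized and the raw Vcam1 values ran in opposite orders. The normalized levels were 8.08 and 8.35 in WT and 8.47, 9.34 and 9.38 in Mbd2-/- cDC1s, a log2 difference of 0.85 ± 0.31 with no overlap. The raw intensities of the same arrays were 398 and 397 in WT and 333, 339 and 387 in Mbd2-/- cDC1s, which is the opposite order, on arrays whose overall brightness was lower. Quantile normalization gives every array the same distribution of brightness. Ordered by mean normalized level, Vcam1 fell from Mbd2-/- macrophages through WT macrophages, Mbd2-/- monocytes, WT monocytes and Mbd2-/- cDC1s to WT cDC1s, and in that order WT monocytes and Mbd2-/- cDC1s were the neighbours that overlapped.

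Markers of other cell types were followed beside these differences. The summed level of 10 endothelial and stromal markers, 7 or 8 of them detected on every array of a group, ran from 1888 to 3373 in WT monocytes and 1807 to 4226 in Mbd2-/- monocytes, and from 1670 to 3628 and 2054 to 3438 in macrophages. These sums overlapped between genotypes in both cell types. The stromal gene Dcn was the brightest of the 10. The endothelial gene Pecam1, a single member of the list, had a higher mean in Mbd2-/- cells. It was 8.28 against 7.43 in monocytes and 8.40 against 7.39 in macrophages, with overlap in both. The macrophage markers overlapped between genotypes, at 18180 to 20470 and 17480 to 22000 in monocytes and 40960 to 47120 and 41140 to 46920 in macrophages. The monocyte markers in macrophages summed to 4157, 4168, 4622, 4709 and 6926 in WT and to 5872 to 7697 in Mbd2-/- cells, so that 4 of 5 WT arrays lay below the Mbd2-/- range. B and plasma cell markers were lower in Mbd2-/- monocytes, with a summed level over 5 genes of 572 to 938 against 989 to 1420 and Ms4a1 detected in neither. The part of these markers in the Spic and Vcam1 results was not tested.

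The 25 arrays also showed which of 14396 genes had profiles most like these 2. The points are the same arrays for every gene and share their cell types, so no p-value is given. Closest to Spic were Mertk (Pearson r = 0.97), a receptor for apoptotic cells, Fer1l3 (0.97), Myo7a (0.96), the lysosomal protein gene Cd68 (0.96) and the transporter gene Abca9 (0.96). Closest to Vcam1 were Hebp1 (0.97), which encodes a heme-binding protein, Mag (0.96), the B cell factor gene Tnfsf13b (0.95), Cp (0.95), which encodes the ferroxidase ceruloplasmin, and Gbp1 (0.94). Spic and Vcam1 correlated with each other at 0.89. The log2 difference between genotypes in macrophages was 0.88 for Mertk but 0.19 for Cd68.

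By the brightest probe of each gene, the heme and iron genes differed less between genotypes than Vcam1 in monocytes, and less than Spic and Vcam1 in macrophages. For Hmox1, which carries out the committed step, WT macrophages read 8.79, 9.01, 9.05, 9.07 and 9.23 and Mbd2-/- macrophages 8.33, 8.95, 9.15, 9.37 and 9.57. The WT values lay inside the Mbd2-/- range, and the log2 difference was 0.04 ± 0.23. In monocytes Hmox1 ran from 7.88 to 8.80 in WT and from 8.26 to 8.95 in Mbd2-/- cells (0.28 ± 0.23).

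The hemoglobin receptor gene Cd163 and the iron exporter gene Slc40a1 overlapped between genotypes in every cell type. Cd163 was 0.54 ± 0.29 lower in Mbd2-/- monocytes (6.46 to 7.43 against 7.04 to 7.67) and 0.23 ± 0.29 higher in Mbd2-/- macrophages (9.90 to 11.03 against 9.78 to 10.62). Slc40a1 differed by 0.02 ± 0.29 in monocytes and by -0.30 ± 0.29 in macrophages, where WT arrays ran from 9.58 to 10.40 and Mbd2-/- arrays from 8.97 to 10.21. On the same Mbd2-/- macrophage arrays Spic was 1.56 higher. Erythroid markers, a sign of red cell RNA in the sorts, overlapped between genotypes too, at 417 to 1089 and 348 to 1675 summed over 7 genes in monocytes and 431 to 1047 and 264 to 1275 in macrophages.

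Of the biliverdin reductases, Blvrb separated the genotypes in monocytes and Blvra did not. WT monocytes read 10.44, 10.53, 10.59, 10.63 and 10.70 and Mbd2-/- monocytes 10.73, 10.87, 10.96, 10.98 and 11.20, close together but without overlap. The log2 difference was 0.37 ± 0.10, and in macrophages it was 0.31 ± 0.10 with overlap (11.40 to 11.99 against 11.75 to 12.03). The second Blvrb probe ran from 7.68 to 8.14 in WT and 8.18 to 8.61 in Mbd2-/- monocytes, without overlap. In macrophages that probe overlapped, at 8.75 to 9.26 against 8.99 to 9.51. Blvra differed by 0.15 ± 0.08 and -0.06 ± 0.08 in these cells. For the nuclear receptor gene Nr1h3 the log2 differences were 0.20 ± 0.23 in monocytes and 0.46 ± 0.23 in macrophages, and its WT and Mbd2-/- ranges overlapped in both. The second probes of Cd163 and Nr1h3 were detected on only 2 and 1 of the 25 arrays.

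**Figure D2:**
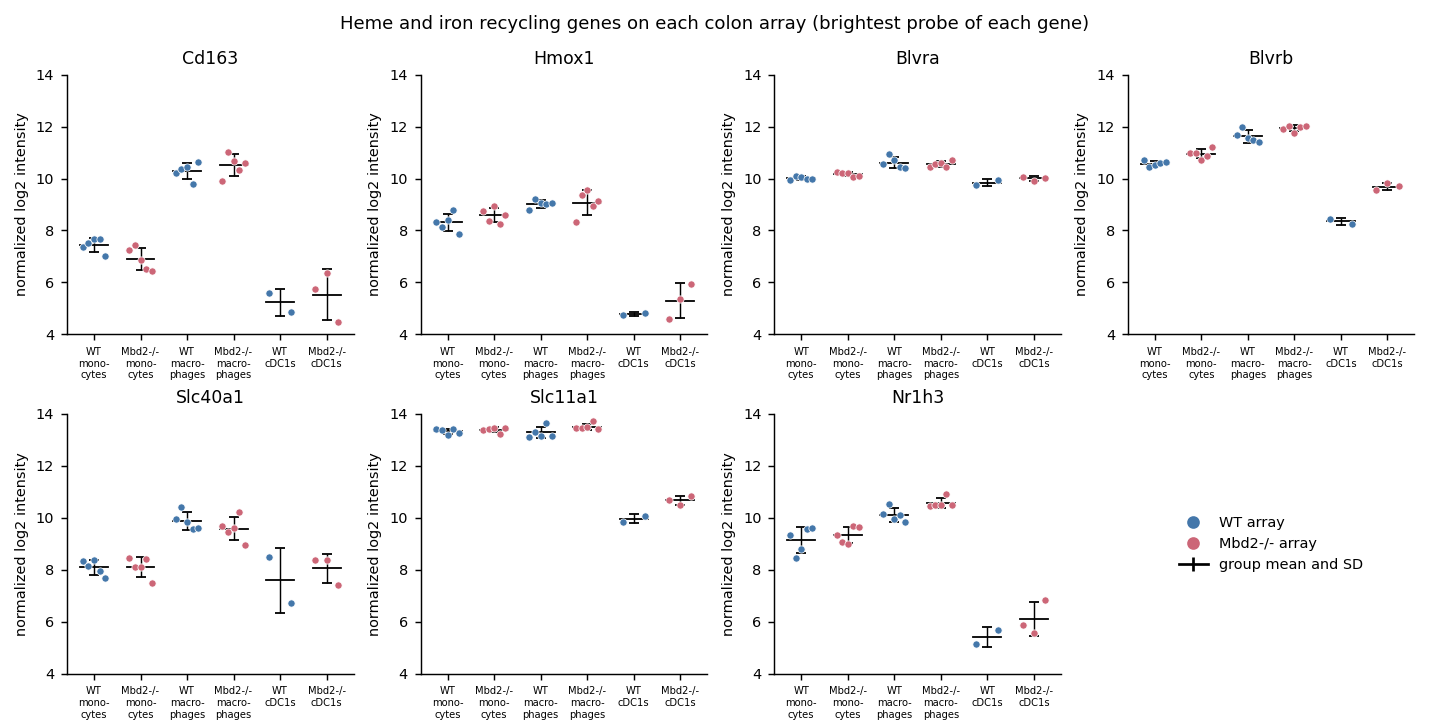
Normalized log2 intensity (vertical axis) of the brightest probe of 7 heme and iron genes on each colon array, by group (horizontal axis; blue WT, red Mbd2-/-), with the group mean and SD in black. Cd163 and Slc40a1 overlap between genotypes in each cell type, and Blvrb separates them in cDC1s (8.25 and 8.44 against 9.54 to 9.81).

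Slc11a1 was bright and even on 2 of its 4 probes and erratic on the other two. The brightest probe ran from 13.12 to 13.71 over all 20 monocyte and macrophage arrays, and its log2 differences were 0.06 ± 0.09 in monocytes and 0.22 ± 0.09 in macrophages. The third probe ran from 6.16 to 8.79 in WT monocytes, 7.25 to 9.68 in Mbd2-/- monocytes, 4.71 to 8.45 in WT macrophages and 5.09 to 10.99 in Mbd2-/- macrophages. The fourth followed it, and on both the same macrophage arrays were lowest (WT array 12 and Mbd2-/- array 18) and highest (WT array 15 and Mbd2-/- array 20). The standard deviation in Mbd2-/- macrophages was 2.15 on the third probe and 0.12 on the brightest. The error between beads of one probe on one array was at most 7.55% of the intensity for any of the 19 probes. Both probes had higher means in Mbd2-/- cells, with overlap. The third read 8.61 against 7.35 in WT monocytes and 7.80 against 6.38 in WT macrophages. The fourth read 8.60 against 7.37 and 7.48 against 6.18. What these 2 probes measured was not tested, and they are left out of other statements on Slc11a1.

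**Figure D3:**
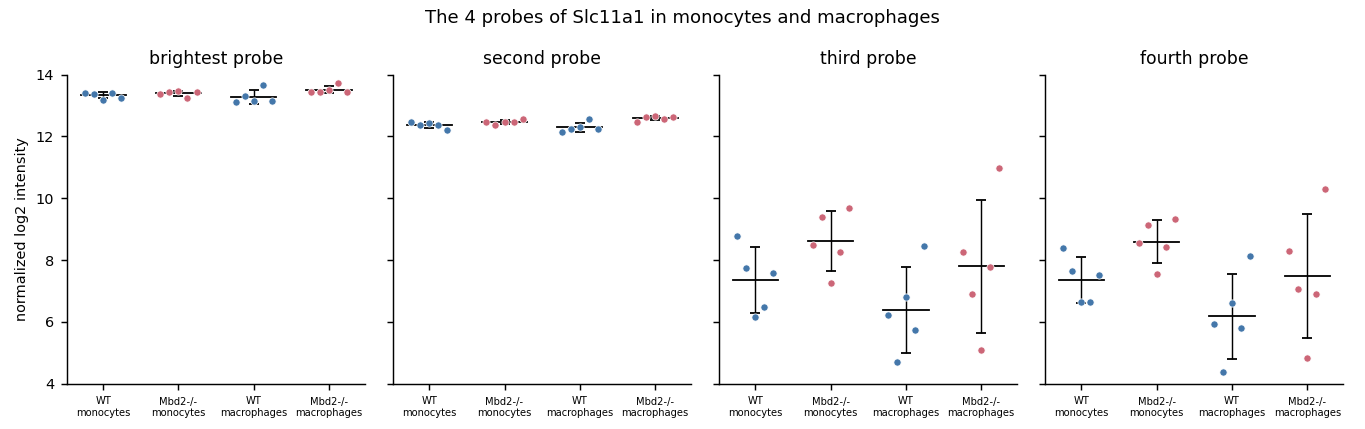
Normalized log2 intensity (vertical axis) of each of the 4 Slc11a1 probes on the 20 monocyte and macrophage arrays, by group (horizontal axis; blue WT, red Mbd2-/-), with the group mean and SD in black. The brightest and second probes stay within a narrow band, whereas the third runs from 4.71 to 10.99 in macrophages.

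In cDC1s, Blvrb and Slc11a1 did not overlap between genotypes, and neither did Vcam1 as given above. With so few arrays, 32% of all genes tested in cDC1s did not overlap either, so a lack of overlap alone does not set these genes apart. Blvrb read 8.25 and 8.44 in WT and 9.54, 9.71 and 9.81 in Mbd2-/- cDC1s, a log2 difference of 1.34 ± 0.14, and its second probe differed by 1.27 ± 0.19. Slc11a1 read 9.85 and 10.09 in WT and 10.48, 10.69 and 10.83 in Mbd2-/- cDC1s (0.70 ± 0.13), and 1.13 ± 0.16 on the second probe. Before normalization both overlapped: raw Blvrb intensities were 378 and 483 in WT and 450, 475 and 611 in Mbd2-/- cDC1s, and those of Slc11a1 were 1064 and 1112 against 681, 991 and 1297.

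Blvra was even in cDC1s, at 9.74 and 9.93 in WT and 9.90 to 10.08 in Mbd2-/- cells, with overlap. Slc40a1 and Cd163 varied widely. The 2 WT arrays of Slc40a1 lay at 6.71 and 8.48, on either side of the lowest Mbd2-/- array (7.41), and the log2 difference was 1.36 without WT array 23, while it was -0.42 once WT array 26 was left out. Cd163 ran from 4.47 to 6.38 in Mbd2-/- cDC1s and its difference moved from 0.30 to 0.84 without array 30. Hmox1 was detected on 2 of 3 Mbd2-/- arrays, with a difference of 0.51 ± 0.33, and Nr1h3 differed by 0.68 ± 0.34, both with overlap.

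Myeloid markers moved in the same direction in these cDC1 sorts. The summed level of the 9 macrophage markers was 2596 and 2735 in WT and 2967, 4025 and 5737 in Mbd2-/- cDC1s. Of the 9, 8 were detected on every WT array and 6 on every Mbd2-/- array. The monocyte markers summed to 6842 and 7030 against 7947 to 10020, with Ccr2 and Vcan detected on none of the 5 arrays. B and plasma cell markers (317 to 335 against 387 to 602) did so too. The sums of 4 eosinophil markers were also higher (85.5 to 101 against 119 to 145) but near background. Epx and Siglecf were not detected, and none of the 4 was detected on every WT array. The 2 WT cDC1 arrays differed in other markers. On array 23 the epithelial markers summed to 15750, above its cDC1 sum of 14850, and the T cell markers to 2889. On array 26 these epithelial and T cell sums were 4312 and 639.5. The Mbd2-/- cDC1 arrays ran from 5029 to 10310 and from 372 to 2367. The part of all these markers in the cDC1 values was not tested.

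**Figure D4:**
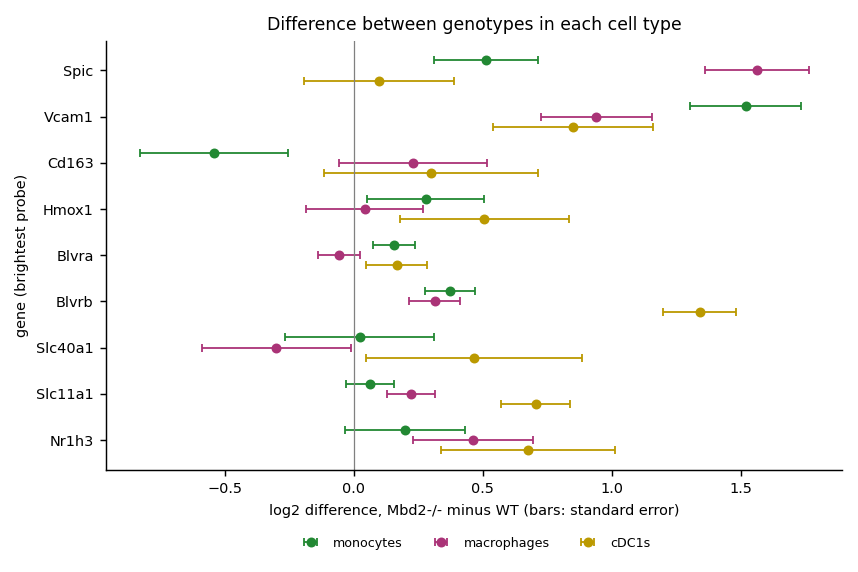
Log2 difference between genotypes, Mbd2-/- minus WT (horizontal axis), for the brightest probe of each of the 9 genes (vertical axis) in monocytes (green), macrophages (purple) and cDC1s (yellow), with standard errors as bars. Spic is farthest from 0 in macrophages (1.56), Vcam1 in monocytes (1.52) and Blvrb in cDC1s (1.34).

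Counted by the limma fit at an adjusted p-value under 0.05, 2 of the 9 members passed in each cell type, all higher in Mbd2-/- cells: Vcam1 and Blvrb in monocytes, where 2.47% of all genes tested passed and 1.05% passed as higher, Spic and Vcam1 in macrophages (7.06% and 2.96%), and Blvrb and Slc11a1 in cDC1s (8.85% and 4.93%). These contrasts were in view when the genes were chosen, so nothing is read from the counts. Groups did not overlap for 3 members in cDC1s (Vcam1, Blvrb and Slc11a1), where 32% of all genes did not, and for the 2 that passed in monocytes (5.12%) and in macrophages (5.21%). The median log2 difference of the members was 0.20 in monocytes, 0.23 in macrophages and 0.51 in cDC1s, beside -0.03, -0.08 and 0.05 over all genes tested. Blvrb in monocytes passed in 1 of the 10 fits that left out an array there, the one without Mbd2-/- array 8 (0.43), with differences of 0.31 to 0.43 over the 10. Slc11a1 in cDC1s did not pass without WT array 23 (0.59).

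The scaling mattered for the smaller of these differences. When arrays were scaled by their medians in place of quantiles, the median of all probes moved to -0.26 in monocytes and -0.37 in cDC1s and stayed at -0.07 in macrophages. Relative to those shifts, Vcam1 was 1.51 higher in monocytes (1.54 under quantile normalization) and 0.93 in macrophages (1.01), and Blvrb was 1.07 higher in cDC1s (1.31). Slc11a1 in cDC1s was 0.56 above the shifted median and 0.19 above 0. In plain log2 differences under median scaling, Spic and Vcam1 in macrophages (1.43 and 0.86) and Vcam1 in monocytes (1.25) kept their direction, although Vcam1 in macrophages no longer passed, nor did Blvrb in monocytes or cDC1s (0.08 and 0.70) or Slc11a1 in cDC1s. Of the differences that had not passed, 10 changed sign under median scaling, namely those of Blvra and Slc40a1 in monocytes and cDC1s, Hmox1 in monocytes and macrophages, Nr1h3 in monocytes, and Spic and Cd163 in cDC1s, together with Slc11a1 in monocytes. Relative to the shifted median, 9 of the 10 stayed above it, by 0.02 to 0.34, and Slc40a1 in monocytes lay at -0.05.

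Differences between cell types are other contrasts than the genotype differences by which the genes were chosen, and here the fit gives a test of each gene. The genes are known from iron recycling macrophages and the same arrays enter both kinds of contrast, so the number of members higher in macrophages is not independent evidence of a pattern. The p-values of single genes, here and against cDC1s, carry the same limit, since arrays of both genotypes helped to choose the genes. In Mbd2-/- macrophages the Spic and Vcam1 levels in these contrasts are the same ones that gave their genotype differences. Macrophages were above monocytes for nearly all of the set. In WT cells 8 of 9 members were higher in macrophages, where 17.1% of all genes tested were, and in Mbd2-/- cells 7 of 9 were, against 16.7%. The median log2 difference of the members was 0.96 and 1.22, beside 0.03 and 0.01 over all genes.

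Cd163 differed the most between these cells. It rose by 2.83 ± 0.29 in WT (adjusted p = 2.4e-07) and by 3.60 ± 0.29 in Mbd2-/- macrophages (adjusted p = 6.94e-09), from 7.04 to 7.67 in WT monocytes up to 9.78 to 10.62 in WT macrophages. Vcam1 rose by 2.54 ± 0.22 in WT (adjusted p = 2.25e-08) and 1.96 ± 0.22 in Mbd2-/- cells (adjusted p = 5.3e-07), and Slc40a1 by 1.78 ± 0.29 (adjusted p = 9.03e-05) and 1.46 ± 0.29 (adjusted p = 0.000581). Spic rose by 0.81 ± 0.20 in WT (adjusted p = 0.00455) and 1.87 ± 0.20 in Mbd2-/- cells (adjusted p = 3.88e-07). Its second probe rose in Mbd2-/- cells, by 1.29 ± 0.29 (adjusted p = 0.00177), and differed by 0.18 ± 0.29 in WT (adjusted p = 0.707).

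The enzyme genes and Nr1h3 rose as well. Blvrb was 1.04 ± 0.10 higher in WT macrophages (adjusted p = 9.04e-08) and 0.98 ± 0.10 in Mbd2-/- macrophages (adjusted p = 1.38e-07), Blvra 0.59 ± 0.08 (adjusted p = 1.24e-05) and 0.38 ± 0.08 (adjusted p = 0.00119), and Nr1h3 0.96 ± 0.23 (adjusted p = 0.004) and 1.22 ± 0.23 (adjusted p = 0.000392). Hmox1 passed in WT, at 0.72 ± 0.23 (adjusted p = 0.0238), and had a difference of 0.48 ± 0.23 in Mbd2-/- cells (adjusted p = 0.123). Slc11a1 did not pass in either, at -0.04 ± 0.09 and 0.12 ± 0.09, with adjusted p-values of 0.792 and 0.373. The Hmox1 call in WT was lost without WT monocyte array 2 (adjusted p = 0.0521), WT monocyte array 5 (0.0712) or WT macrophage array 12 (0.0577), and Hmox1 passed in Mbd2-/- cells without macrophage array 16 (0.67, adjusted p = 0.0236). Under median scaling 4 members passed in WT (Vcam1, Slc40a1, Cd163 and Blvrb), all higher, and Spic differed by 0.72 with an adjusted p of 0.0595.

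**Figure D5:**
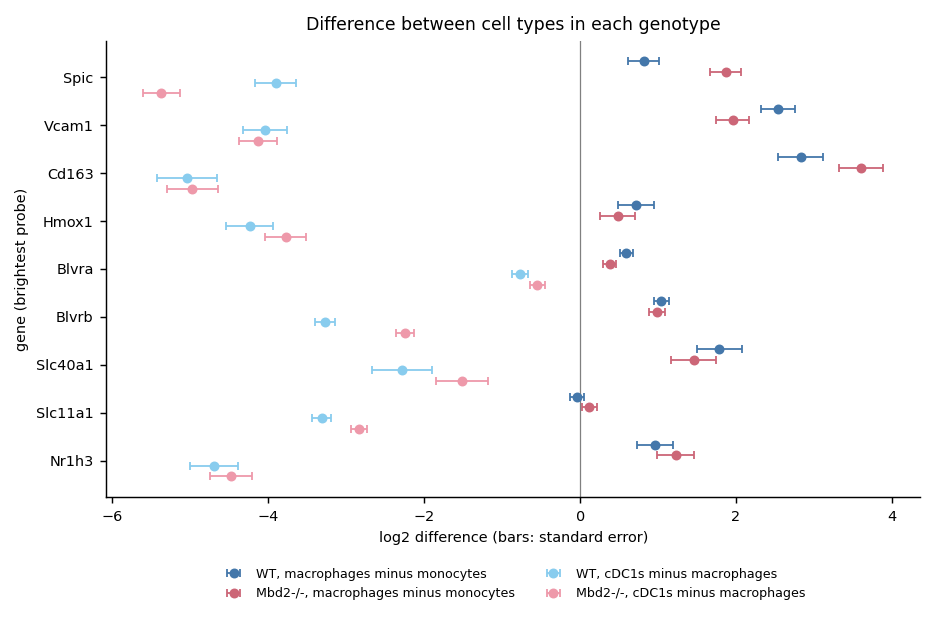
Log2 difference between cell types (horizontal axis) for the brightest probe of each of the 9 genes (vertical axis) in WT (blue) and Mbd2-/- cells (red), macrophages minus monocytes in dark and cDC1s minus macrophages in light colors, with standard errors as bars. Slc11a1 lies near 0 between macrophages and monocytes (-0.04 and 0.12), and all 9 genes lie below 0 for cDC1s minus macrophages.

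All 9 members were lower in cDC1s than in macrophages, in WT (20.8% of all genes were lower) and in Mbd2-/- cells (23%). Cd163 fell by 5.04 ± 0.38 on the log2 scale in WT (adjusted p = 7.3e-10), Nr1h3 by 4.69 ± 0.31 (adjusted p = 8.36e-11), Hmox1 by 4.24 ± 0.30 (adjusted p = 2.74e-10) and Blvra, the most even of the set, by 0.77 ± 0.11 (adjusted p = 6.66e-06). Spic fell by 3.91 ± 0.27 in WT (adjusted p = 1.46e-10) and fell by 5.37 ± 0.23 in Mbd2-/- cells (adjusted p = 6.99e-14). Where a gene was near background in cDC1s, as Spic and Hmox1 were, the true fall may be larger than the measured one.

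Against monocytes, 7 of 9 members were lower in cDC1s in each genotype (18.4% of all genes in WT and 22.7% in Mbd2-/- cells). Slc11a1 fell by 3.36 ± 0.12 in WT (adjusted p = 6.27e-15) and Vcam1 by 1.51 ± 0.29 (adjusted p = 0.000223). The 2 that did not pass were Blvra, at -0.18 ± 0.11 (adjusted p = 0.207) and -0.17 ± 0.09 (adjusted p = 0.153), and Slc40a1, at -0.50 ± 0.38 (adjusted p = 0.329) and -0.06 ± 0.33 (adjusted p = 0.902). In WT, the Slc40a1 value was -1.40 without cDC1 array 23 (adjusted p = 0.0163) and 0.38 without cDC1 array 26. These comparisons share the cDC1 and monocyte or macrophage arrays with each other.

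The difference between genotypes was itself compared between cell types. The genes were chosen on these differences, so the values and counts are a description from which nothing is read. Spic had a genotype difference 1.05 ± 0.28 larger in macrophages than in monocytes on the brightest probe and 1.11 ± 0.41 larger on the second. No member passed that comparison, in which 4 of 13805 genes did (0.029%), and 1 member, Spic, passed at an unadjusted p-value under 0.05. Between cDC1s and macrophages 2 members passed (7.38% of all genes did), namely Spic, smaller by 1.46 ± 0.35 in cDC1s, and Blvrb, larger by 1.03 ± 0.17. Since Spic was near background in cDC1s, its difference there, and so this value, is limited by the floor. Between cDC1s and monocytes 2 passed (1.66%), namely Blvrb, larger by 0.97 ± 0.17, and Slc11a1, larger by 0.64 ± 0.16. The Spic call was lost without WT cDC1 array 26 (-1.25) or Mbd2-/- cDC1 array 28 (-1.22), and the Slc11a1 call in 12 of the 15 fits that left out an array. For Vcam1 that comparison of cDC1s with macrophages gave -0.09 ± 0.38 on the brightest probe, and -1.98 ± 0.37 and -1.41 ± 0.35 on the second and the third, which were not detected in cDC1s.

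The surrounding heme and iron pathway was followed through 89 further genes in 5 lists, all of them on the array. They were chosen for their roles, but with earlier results of these data known. Their p-values and counts are therefore not independent evidence. In monocytes 68 were tested and 1 passed, where 2.47% of all genes did, and in macrophages 75 were tested and 3 passed, where 7.06% did. Both counts are below those shares. In neither cell type did any gene of heme uptake, transport and synthesis (17 and 18 tested), of iron storage, transport and sensing (23 and 27) or of heme-responsive and antioxidant regulation (12 and 12) pass. The lists' median log2 differences in macrophages ran from -0.13 to 0.13, beside -0.08 over all genes.

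The genes that passed lay in the lists of partners. Irf4, which encodes a transcription factor that pairs with Ets factors such as PU.1 on DNA, was lower in Mbd2-/- cells, by 0.76 ± 0.17 on the log2 scale in monocytes (7.99 ± 0.17 in WT against 7.23 ± 0.33, SD, n = 5; limma adjusted p = 0.0182) and by 0.75 ± 0.17 in macrophages (8.82 ± 0.13 against 8.07 ± 0.33; adjusted p = 0.0139). Its groups did not overlap in either. Itgb7, which encodes the β7 integrin chain that forms a VCAM-1 receptor with α4, was lower in Mbd2-/- macrophages (9.29 ± 0.40 against 8.50 ± 0.30; adjusted p = 0.00556), with overlap. Beside these, the B and plasma cell sum was lower in Mbd2-/- monocytes as given above. In macrophages it ran from 1003 to 1769 in WT against 640 to 1466 in Mbd2-/- cells. Zbtb46, 1 of the 8 cDC1 markers and near background, ran from 4.85 to 5.29 against 4.43 to 4.67 in monocytes. In macrophages it ran from 5.01 to 5.55 against 4.51 to 4.85. Irf8, another of the 8, went the other way in monocytes, with a mean of 9.805 in WT and 10.153 in Mbd2-/- cells. Its log2 difference there was 0.35 (limma adjusted p = 0.241). The sum of all 8 overlapped between genotypes, at 1156 to 1729 against 1399 to 1910 in monocytes. In macrophages that sum ran from 2225 to 2889 against 2533 to 2846. The part of these markers in the Irf4 and Itgb7 values was not tested. Mertk, a gene that LXR induces, was higher there (8.79 ± 0.32 against 9.67 ± 0.28; adjusted p = 0.00783), and its second tested probe differed by 0.61. The Irf4 call in monocytes was lost without WT array 3 (adjusted p = 0.0578) or Mbd2-/- array 10 (0.0649), and all 3 macrophage calls under median scaling (adjusted p = 0.108 for Irf4, 0.0893 for Itgb7 and 0.116 for Mertk). Leaving out a single macrophage array raised the macrophage count to 5 (WT array 13), 7 (Mbd2-/- array 17) or 8 (WT array 15).

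The genes of iron storage and of its regulators that were followed whatever they did passed in neither monocytes nor macrophages. The ferritin heavy chain gene Fth1 differed by -0.08 ± 0.06 in monocytes (adjusted p = 0.605) and by -0.0004 ± 0.06 in macrophages (adjusted p = 0.997), and the light chain gene Ftl1 by -0.15 ± 0.12 (adjusted p = 0.612) and 0.05 ± 0.12 (adjusted p = 0.816). The transferrin receptor gene Tfrc differed by 0.22 ± 0.16 and 0.27 ± 0.16, with adjusted p-values of 0.559 and 0.311. Bach1, whose product represses Hmox1 and Spic until heme binds it, differed by -0.31 ± 0.39 (adjusted p = 0.774) and -0.62 ± 0.39 (adjusted p = 0.333), and Nfe2l2, whose product activates antioxidant genes, by -0.16 ± 0.43 (adjusted p = 0.904) and 0.89 ± 0.43 (adjusted p = 0.201). None of the 5 passed in cDC1s either, where Nfe2l2 differed by -1.89 ± 0.62 (adjusted p = 0.0609).

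In cDC1s 10 of 73 tested pathway genes passed, 8 of them higher in Mbd2-/- cells, where 8.85% of all genes passed and 4.93% passed as higher. For heme uptake, transport and synthesis 4 of 18 passed, all higher: the haptoglobin gene Hp by 1.32 ± 0.34 (adjusted p = 0.0211), the heme-hemopexin receptor gene Lrp1 by 0.89 ± 0.24 (adjusted p = 0.0239), Alad, an enzyme of heme synthesis, by 0.59 ± 0.15 (adjusted p = 0.0216), and the heme transporter gene Slc48a1, listed under its older clone name, by 0.47 ± 0.14 (adjusted p = 0.0368). Among 25 iron genes, the lactoferrin gene Ltf was higher (mean log2 level 6.16 against 5.07 in WT, adjusted p = 0.0312) and the iron transporter gene Slc11a2 by 0.63 ± 0.17 (adjusted p = 0.0235), while Ireb2, which encodes an iron sensing RNA-binding protein, was lower by 0.77 ± 0.20 (adjusted p = 0.0219). Among 8 LXR genes, the partner receptor genes Rxrb (0.65 ± 0.19, adjusted p = 0.0371) and Rxra (0.59 ± 0.17, adjusted p = 0.0332) were higher and Smpdl3a was lower by 0.77 ± 0.17 (adjusted p = 0.00908). The other tested probes of these genes differed by 0.16 and 0.02 for Rxrb, 0.49 for Hp, 0.34 for Slc11a2 and -0.59 for Ireb2. Lrp1, Ltf and Rxra were near background in WT cDC1s, with mean levels of 4.88, 5.07 and 5.18. No pathway gene passed once WT array 23 was left out and 4 did without Mbd2-/- array 28. Without WT array 26 the count was 12, but Lrp1, Slc48a1, Alad, Ireb2, Ltf and Rxrb were not among them. None passed when the cDC1 arrays were fitted alone, and under median scaling, which moved the median of all probes to -0.37, 3 did, all lower, and Slc48a1 was at -0.19. The part of the macrophage and monocyte markers described above, which moved with these genes, was not tested.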

How the data were processed

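Bead intensities, with a detection p-value, a bead count and a bead standard error per probe, were read by the authors from Illumina MouseWG-6 BeadChips and deposited without normalization; these intensity and p-value columns were used here, and 3 signal columns that belong to no sample were not. The submitters' processing notes name lumi and limma. Here, 25 colon arrays in 6 groups of cell type and genotype were background-corrected by normexp with 936 negative control probes (offset 16), quantile normalized and fitted in one model with limma 3.58.1 in R 4.3.3, each comparison being adjusted by Benjamini-Hochberg over the probes tested. A probe was tested if its detection p-value was under 0.05 on as many arrays as the smaller group held, a gene was represented by its brightest tested probe, and a gene passed at an adjusted p-value under 0.05. The script was tested on simulated data. The submitters pooled 1 to 10 mice per replicate according to the methods and 1 to 5 according to the sample record, and p-values measure the spread between such samples. The methods also place the replicates in 3 separate experiments, which the labels do not assign to arrays. The fit holds no term for experiment, so that spread may include differences between experiments. The members and lists were chosen with earlier results of these data known. Named genes were all 9 members with each of their probes, the 5 genes most correlated with Spic and with Vcam1, pathway genes that passed, and ferritin genes, Tfrc, Bach1 and Nfe2l2 whatever they did. Precision is set by the number of arrays per group. The alternatives were other background corrections, scalings, filters, thresholds and probe rules, array weights, each comparison's groups alone, and leaving out each array in turn.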

Additional observations from a re-analysis of the deposited data

Results flagged for a closer look

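On 3 of 61 combinations of probe and group with 4 to 10 arrays, a single array stood apart from the others by Dixon's ratio, and chance gives about 1 in 20. These were Mbd2-/- macrophage array 20 on the second Spic probe (8.46, the others 6.48 to 6.94) and Mbd2-/- macrophage array 19 on the brightest probes of Nr1h3 (10.93) and Slc11a1 (13.71). Array 20 was also the highest of its group on both dim Slc11a1 probes, and on the brightest Spic probe it lay within its group at 10.46.

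Between cell types, the genotype difference of 3 genes was past the threshold of the limma interaction fit. The genes were chosen on these differences, so the values are a description and nothing is read from the threshold. For Blvrb the difference was larger in cDC1s than in monocytes (by 0.97) and than in macrophages (by 1.03), for Slc11a1 larger in cDC1s than in monocytes (by 0.64), and for Spic it was -1.46 in cDC1s relative to macrophages. Spic was near background in cDC1s.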

How the results depend on the processing

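No paired analysis was possible because array numbers differ between groups and the labels do not tie arrays to one another. Among the values of single genes, 1011 kept their side of the threshold, or moved by less than the spread, when one setting was changed (differences that had not passed and changed sign are among them), 72 no longer passed, 11 untested ones moved by more than the spread, 3 newly passed, and 1 that had passed changed sign, Slc48a1 in cDC1s, at -0.19 under median scaling, where the median of all probes was -0.37. The pathway count in monocytes (1) was 2 without background correction, 7 with array weights, 0 at an adjusted p-value under 0.01 or with a log2 difference of at least 1 required, 13 at an unadjusted p-value under 0.05 and 2 with the groups alone. In macrophages (3) it was 0 under median scaling, 5 with a strict filter, 0 with the log2 requirement and 20 unadjusted. In cDC1s (10) it was 3 under median scaling, 2 with no filter, 1 with array weights, 1 at 0.01, 2 with the log2 requirement, 23 unadjusted and 0 with the groups alone. Of the 8 members higher in WT macrophages than monocytes, 4 remained in number under median scaling and 4 with the log2 requirement. For the genotype difference between cell types, macrophages minus monocytes (0) gave 1 unadjusted, cDC1s minus monocytes (2) gave 0 under median scaling and with the log2 requirement and 1 with no filter, array weights or 0.01, and cDC1s minus macrophages (2) gave 1 under median scaling, cyclic loess, array weights, 0.01 or the groups alone and 4 when any probe counted. Leaving out 1 array in turn gave pathway counts of 0 to 3 in monocytes (0 without WT array 3 or Mbd2-/- array 10, 3 without WT array 4), 3 to 8 in macrophages and 0 to 12 in cDC1s, and 0, 1 to 2 and 1 to 2 members for the 3 interactions in the order above. Where the cause of a change was not built into the setting, it was not tested. The 2 WT cDC1 arrays limit each cDC1 comparison, and Spic, Hmox1 and Cd163 were near background there.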

Other observations

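Marker lists of 4 further cell types did not separate the genotypes within a colon cell type. Epithelial markers summed to 4312 to 15750 over the groups, with Epcam detected in Mbd2-/- cDC1s alone, T cell markers to 225 to 2889 and neutrophil markers to 101 to 187. Erythroid markers are given with the heme and iron genes.

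Splenic CD4 T cells were represented by 1 array per genotype and enter no comparison. No DSS percentage is recorded for them, unlike for the colon arrays. All 9 genes were detected on both. The raw intensity was 187 in WT and 172 in Mbd2-/- T cells for Spic, 458 and 330 for Vcam1, 275 and 320 for Blvrb, 162 and 209 for Hmox1, and 520 and 393 for Slc40a1. With a single array each, no difference can be tested.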
